A study of Mus musculus with 20 samples.

Results

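The transcripts examined were those of 6 genes of the tumor necrosis factor (TNF) superfamily, taken by symbol from the 24421 genes counted in every library. They comprised the ligands Tnf, Tnfsf13 (April), Tnfsf13b (Baff) and Tnfsf14 (LIGHT) and the TNF receptors Tnfrsf1a (TNFR1) and Tnfrsf1b (TNFR2). All 6 were detected and all 6 were among the 14030 genes that passed the filter on low counts. RNA-seq was carried out on neutrophils enriched from the bone marrow of female mice, with 20 libraries in 4 groups of 5. WT mice were C57BL/6J and carried neither Cre nor a floxed allele. Mice labelled KO, called Bmal1Mye-/- here, carried a floxed Bmal1 gene and LysMCre, a Cre inserted in the Lyz2 locus that acts in myeloid cells generally and not in neutrophils alone. Imiquimod (IMQ) is an agonist of the endosomal receptor TLR7 that is used on the skin to induce lupus-like disease. Treated mice of either genotype received 5% cream on the ears 3 times per week for 6 weeks from 8 to 10 weeks of age. The other 10 mice were untreated, and all marrow was taken in the morning, between ZT 1 and ZT 4.

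Ligands of the TNF superfamily are made as trimeric transmembrane proteins, and several are released by proteases at the cell surface. TNF signals through TNFR1, whose death domain can recruit either the NF-κB machinery or the caspase-8 and RIPK3 death machinery, and through TNFR2, which lacks a death domain. BAFF and APRIL are survival factors for B cells and plasma cells and bind TACI and BCMA, BAFF also binds BAFF-R, and neutrophils and other myeloid cells of the marrow are known sources of both. LIGHT binds HVEM and the lymphotoxin-β receptor and acts on T cells and stromal cells.

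Total reads assigned to genes ran from 30782166 to 92613500 per library, and 51.9% to 57.8% of the reads in a library fell on no annotated gene. Lyz2, the locus that carries Cre, was at 11408 ± 593 CPM (counts per 1000000 scaled reads; SD, n = 5) in untreated WT and 135 ± 29.8 CPM in untreated Bmal1Mye-/- libraries, so the genotype labels separated at that locus. Arntl, the gene symbol of Bmal1, was at 1.35 ± 0.322 CPM in untreated WT and 0.721 ± 0.240 CPM in untreated Bmal1Mye-/- libraries, a difference that did not pass the test (log2 fold change of -0.90, adjusted p = 1.00, edgeR quasi-likelihood test with Benjamini-Hochberg adjustment). The 9 neutrophil markers that have a row in the files were detected in every library, with S100a8 between 12184 and 30461 CPM, while Ly6g, whose protein was used to check purity, is not analysed here. Among the T and NK cell markers, Cd3e, Cd3g, Klrb1c and Ncr1 each stayed at no more than 0.570 CPM. Cd3d was at 1.14 to 12.6 CPM and Nkg7 at 1.92 to 18.6 CPM. Libraries stood apart within the IMQ groups: on the first principal component over all tested genes (35.0% of the variance), IMQ-treated WT replicate 5 and IMQ-treated Bmal1Mye-/- replicate 2 lay within the range of the untreated libraries, and IMQ-treated WT replicate 3 and Bmal1Mye-/- replicate 1 had the highest scaling factors (1.16 and 1.38). With IMQ, Arntl was at 1.11 ± 0.474 CPM in WT and 0.702 ± 0.477 CPM in Bmal1Mye-/- libraries, and Bmal1Mye-/- replicate 1, at 1.52 CPM, was above 4 of the 5 WT libraries. IMQ-treated Bmal1Mye-/- replicate 1 also had a summed level of 8 monocyte markers of 1737 CPM, against 129 to 622 CPM in the other 9 IMQ-treated libraries. Since whole cell preparations were sequenced, fewer cells of a type and less RNA per cell cannot be told apart.

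Tnfsf13 needs its gene model to be read. The gene lies on the minus strand of chromosome 11 (GRCm38, chr11:69682846-69685784), downstream of Tnfsf12, and the annotation (GENCODE M21) also holds a readthrough gene, Tnfsfm13, that joins the exons of both. Of the 1637 exon bases of Tnfsf13, 60.0% are also exon bases of Tnfsfm13, and the 654 that are not all lie in the first exon (chr11:69685131-69685784). A counter that sets aside reads shared by 2 genes counts Tnfsf13 only over that stretch. Neither the annotation nor the strand setting of the counting is given in the sources used here, and the antisense gene Tnfsf13os overlaps 221 of the exon bases. The readthrough gene received a single read in the 20 libraries together. The low Tnfsf13 values below, 22 to 293 reads per library, may thus be counts over part of the gene, and its level is set against the others with that limit. The 129 coding bases of the stretch, which hold the start of the April protein, are shown because they are the coding sequence that separates Tnfsf13 from the readthrough gene (chr11:69685131-69685259, minus strand, start codon in capitals).
Tnfsf13: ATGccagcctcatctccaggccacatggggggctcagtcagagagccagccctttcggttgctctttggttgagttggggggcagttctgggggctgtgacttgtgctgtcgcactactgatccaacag

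**Figure D1:**
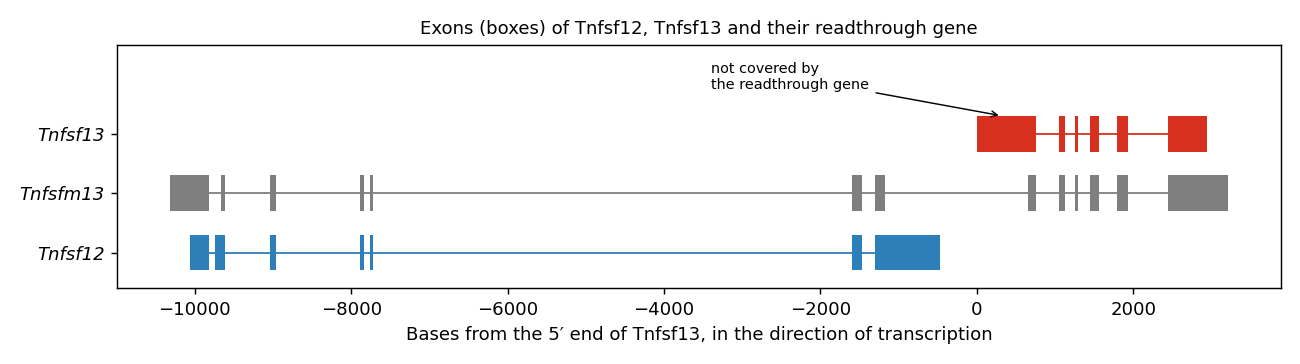
Exons (boxes) of Tnfsf12, the readthrough gene Tnfsfm13 and Tnfsf13 in GENCODE M21, placed by distance in bases from the 5′ end of Tnfsf13 in the direction of transcription. The 654 bases at the left end of Tnfsf13 are the ones that no Tnfsfm13 exon covers.

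The exons of the other 5 genes overlapped no exon of another gene in GENCODE M21. Tnf (chr17:35199381-35202007) and Tnfsf14 (chr17:57189492-57194177) lie on the minus strand of chromosome 17, and Tnfrsf1b (chr4:145213463-145246870) on the minus strand of chromosome 4. Tnfsf13b (chr8:10006467-10039072) and Tnfrsf1a (chr6:125349362-125362484) are on the plus strand.

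Promoter letters were compared because Bmal1 binds the E-box CACGTG, NF-κB drives Tnf in myeloid cells, and the AP-1 motif is read by factors that act with it. In windows from 250 bases before to 50 bases after each RefSeq start (GRCm38.p6), the E-box CACGTG was found for 0 of the 6 genes and in 7.15% of all 32851 windows. The NF-κB consensus was also found for 0 of the 6, against 8.46% of all windows. The AP-1 letters TGAGTCA (either strand) were present in the windows of Tnfsf13, Tnfsf13b and Tnfsf14, 3 of the 6, and in 5.20% of all windows. Each of the 6 was counted as a match if any of its windows held the letters, while the percentages are per window, so these are unlike measures. That motif was chosen after the letters had been seen, and a match is not a bound site. The matches are shown with 10 bases on either side and the motif in capitals. They lie at chr11:69685671-69685697 (minus strand, inside the first exon of the longer Tnfsf13 model), chr8:10006496-10006522 (plus strand, inside the span of the GENCODE model of Tnfsf13b, which starts further upstream than the RefSeq start used) and chr17:57194325-57194351 (minus strand), starting 133, 127 and 160 bases before a start.
Tnfsf13: cattcatgccTGAGTCAgagtctacca
Tnfsf13b: ttgtctggagTGAGTCAgtctgaaccc
Tnfsf14: ccatcccaccTGAGTCAcattttctgg

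Per kilobase of exon, Tnfrsf1a was the most abundant of the 6 transcripts in untreated WT neutrophils at 168 ± 25.9 CPM per kb (SD, n = 5). Tnfsf14 followed at 63.7 ± 11.8, Tnfrsf1b at 30.9 ± 7.54, Tnf at 24.8 ± 2.83 and Tnfsf13b at 13.4 ± 1.01 CPM per kb. Tnfsf13 was at 1.40 ± 0.348 CPM per kb of the exon bases it does not share. The ranges of Tnfrsf1b (23.3 to 42.1) and Tnf (20.3 to 27.7 CPM per kb) overlapped, and no other neighbours in this order did. In IMQ-treated Bmal1Mye-/- neutrophils Tnfrsf1a was again highest, at 131 ± 30.4 CPM per kb. There Tnfsf14 (11.1 to 46.0), Tnf (20.01 to 42.7) and Tnfrsf1b (19.1 to 38.5 CPM per kb) could no longer be ordered.

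**Figure D2:**
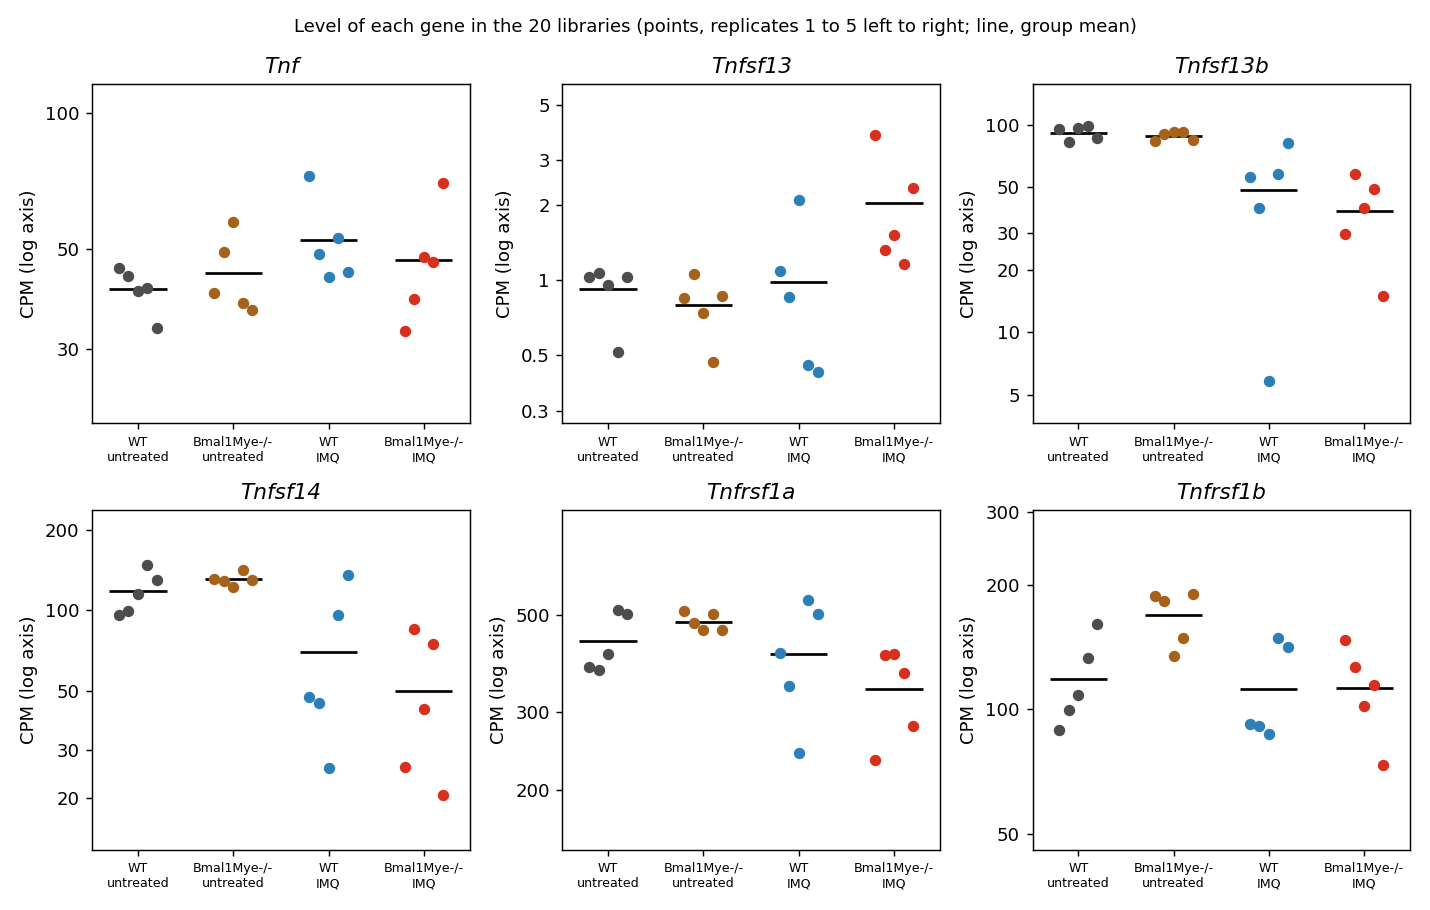
CPM on a log axis in each library for the 4 ligands and 2 receptors, in 4 groups of 5, with the group mean as a line. Tnfsf13b is tightly grouped in untreated libraries, Tnfsf13b and Tnfsf14 reach lower values under IMQ in both genotypes, the 5 Tnfsf13 values of IMQ-treated Bmal1Mye-/- mice lie above those of untreated ones, and Tnf stays between 32.8 and 72.6 CPM.

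The first question was what IMQ did to the 6 transcripts in each genotype, and the second whether they differed between Bmal1Mye-/- and WT mice. Those mice also differ in Cre, in Lyz2 and in breeding source, so the part of Bmal1 in a genotype difference cannot be told apart. In Bmal1Mye-/- neutrophils 4 of 6 passed the test between IMQ-treated and untreated mice (edgeR quasi-likelihood test, adjusted p under 0.05), where 23.5% of all tested genes did. Tnfsf13 rose, and Tnfsf13b, Tnfsf14 and Tnfrsf1b fell. In WT neutrophils 0 of 6 passed, where 3.95% of all genes did, and DESeq2 called 0 as well. At an unadjusted p under 0.05 Tnfsf13b was the 1 gene of the 6 in WT, where 22.3% of all genes lay. Between the genotypes 0 of 6 passed in untreated mice (0.207% of all genes) and 0 of 6 with IMQ (0.292% of all genes), with either tool. At an unadjusted p under 0.05 there was 1 of 6 in each, Tnfrsf1b in untreated mice (2.19% of all genes) and Tnfsf13 with IMQ (19.9% of all genes). The 2 IMQ comparisons share no library, but each shares libraries with the genotype comparisons.

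The difference between the 2 IMQ responses was itself tested as an interaction, and 0 of 6 genes and 0 of all 14030 genes passed, with edgeR or with DESeq2. Unadjusted, 5.14% of all genes lay under 0.05, and Tnfsf13 was the 1 member among them. So the calls in Bmal1Mye-/- mice do not show that these genes responded differently from WT. Libraries of the same replicate number, which are different mice, correlated positively in both IMQ comparisons after centering on their group means. Libraries of unlike number were not compared, so a pairing is not shown. With the replicate number as a block the calls in Bmal1Mye-/- mice fell from 4 to 2, Tnfsf13 (adjusted p = 0.0211, edgeR) and Tnfsf14 (adjusted p = 0.0170). Tnfsf13b (0.0625) and Tnfrsf1b (0.0562) then missed the threshold.

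**Figure D3:**
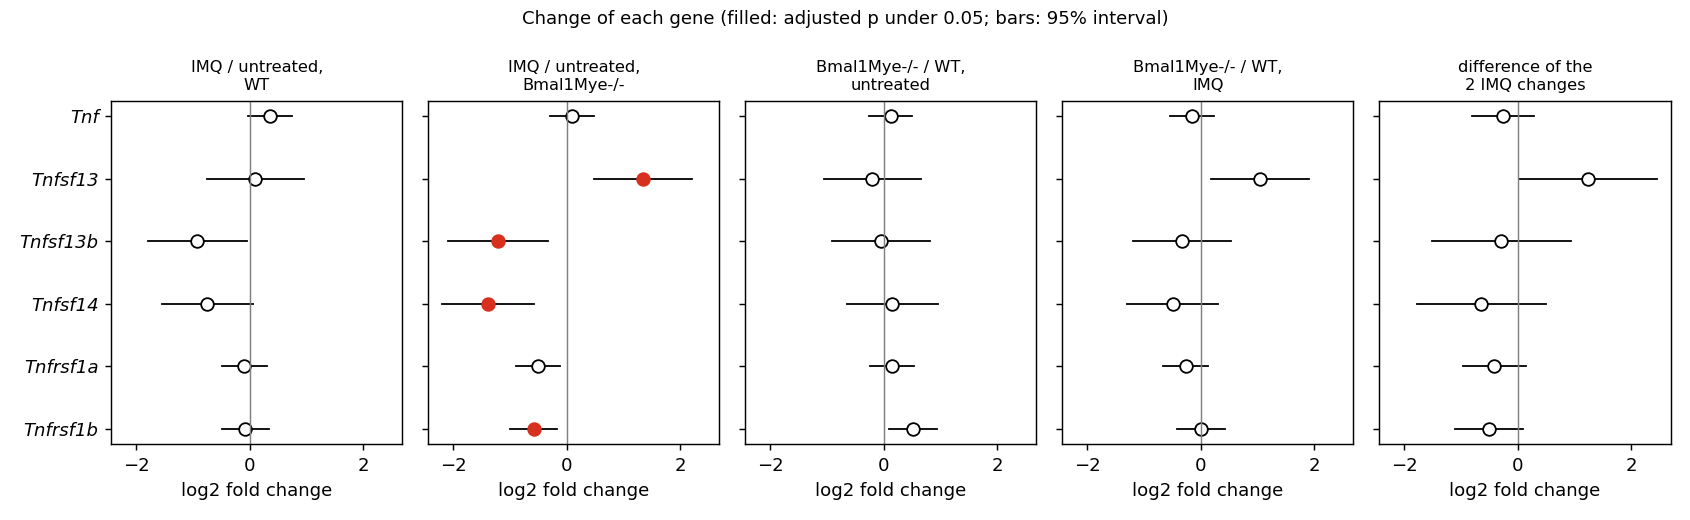
Log2 fold change of each gene with its 95% interval in the 4 comparisons and in their interaction, filled where the edgeR adjusted p was under 0.05. Filled points occur in the IMQ comparison of Bmal1Mye-/- mice alone, for Tnfsf13, Tnfsf13b, Tnfsf14 and Tnfrsf1b, and the intervals of the interaction are wide.

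Tnfsf14, which encodes LIGHT, showed the largest called fall among the 6. Its levels in untreated Bmal1Mye-/- libraries were 131, 128, 123, 142 and 130 CPM (replicates 1 to 5). After IMQ they were 26.0, 85.0, 42.8, 74.9 and 20.4 CPM. All 5 lay below the untreated range, as held for 9.31% of all tested genes in that direction. The fold change was 0.381 (log2 fold change of -1.39, SE 0.39, adjusted p = 0.0188, edgeR). Every fit that left out 1 library kept the call, with adjusted p-values of 0.00868 to 0.0496. In WT mice the untreated libraries were at 95.9, 99.5, 115, 148 and 130 CPM. The IMQ-treated WT libraries were at 47.5, 45.0, 25.8, 96.5 and 135 CPM, so replicates 1 to 3 lay far below the untreated libraries and replicates 4 and 5 among them. The WT change of -0.75 (SE 0.38) did not pass the edgeR test (adjusted p = 0.261). Without replicate 5, one of the libraries that resembled untreated ones, it was -1.13 and passed (adjusted p = 0.0488, edgeR). That fit called 2045 of all tested genes in WT, against 554 with all libraries. The 95% interval of the difference between the 2 IMQ responses ran from -1.77 to 0.49 on the log2 scale.

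Tnfsf13b, which encodes BAFF, varied little between untreated mice and much more after IMQ. Untreated WT libraries were at 95.6, 83.0, 96.2, 98.9 and 86.1 CPM, and untreated Bmal1Mye-/- libraries at 84.1, 90.9, 92.1, 92.9 and 84.5 CPM. The coefficient of variation was 7.58% in the former and 4.76% in the latter. With IMQ, WT libraries were at 56.2, 39.7, 5.83, 58.0 and 82.2 CPM, a coefficient of variation of 58.3%. Bmal1Mye-/- libraries with IMQ were at 29.9, 57.9, 39.8, 49.3 and 14.9 CPM. In each genotype all 5 IMQ-treated libraries lay below all 5 untreated ones, which in the lower direction held for 3.31% of all genes in WT and for 9.31% in Bmal1Mye-/- mice. In Bmal1Mye-/- mice the log2 fold change was -1.21 (SE 0.42, adjusted p = 0.0433, edgeR). This call was lost in 8 of the 10 fits that left out 1 library. The adjusted p was 0.0672, 0.0704, 0.0660, 0.0807 and 0.0646 without untreated replicates 1 to 5 in turn, and 0.0944, 0.0680 and 0.105 without IMQ-treated replicates 1, 3 and 5. In WT the change was -0.93 (SE 0.42), with an adjusted p of 0.193. The genotypes with IMQ differed by -0.34 (95% interval of -1.20 to 0.53), less than the spread between libraries.

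Tnfsf13, which encodes APRIL, moved the other way. Untreated Bmal1Mye-/- libraries were at 0.848, 1.06, 0.740, 0.468 and 0.861 CPM. With IMQ they were at 3.80, 1.31, 1.51, 1.16 and 2.33 CPM. All 5 lay above the untreated ones, as held for 10.8% of all tested genes in that direction. The log2 fold change was 1.34 (SE 0.41, adjusted p = 0.0283, edgeR). Without IMQ-treated replicate 1 it was 0.99 and missed the threshold (adjusted p = 0.0867), as it did without IMQ-treated replicate 5 (0.0571) and without untreated replicates 1 (0.0524), 3 (0.0503) and 4 (0.0753). WT libraries were at 1.02, 1.06, 0.954, 0.516 and 1.03 CPM untreated and at 1.08, 0.854, 2.08, 0.458 and 0.427 CPM with IMQ. Here 1 library was high, 2 were low, and the mean barely moved (log2 fold change of 0.10, SE 0.41). Leaving out that high library, replicate 3, turned the WT change to -0.39 (adjusted p = 0.579).

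With IMQ, Tnfsf13 was at 2.02 ± 1.09 CPM in Bmal1Mye-/- and 0.981 ± 0.674 CPM in WT neutrophils (SD, n = 5). The genotype difference of 1.04 on the log2 scale (95% interval of 0.19 to 1.90) had an adjusted p of 0.219 by edgeR. It moved with single libraries, from 0.70 without Bmal1Mye-/- replicate 1 (adjusted p = 0.628, edgeR) to 1.52 without WT replicate 3 (adjusted p = 0.0175), the 1 of these 10 fits that called it. The fit without WT replicate 3 called 3093 of all tested genes between the genotypes, against 41 with all libraries. The 2 responses to IMQ differed by 1.24 (95% interval of 0.03 to 2.46), with an adjusted p of 0.640 by edgeR. The upstream gene Tnfsf12, which encodes TWEAK and shares the readthrough transcript, was at 0.459 ± 0.167 CPM in untreated and 0.789 ± 0.655 CPM in IMQ-treated Bmal1Mye-/- libraries, a change that did not pass (adjusted p = 0.230, edgeR).

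Tnf itself did not pass in any of the comparisons. Untreated WT libraries were at 45.4, 43.6, 40.2, 40.9 and 33.3 CPM and IMQ-treated ones at 72.6, 48.8, 43.2, 52.7 and 44.5 CPM, so the groups overlapped. The WT change was 0.36 (95% interval of -0.02 to 0.75, adjusted p = 0.255, edgeR). Untreated Bmal1Mye-/- libraries were at 39.9, 49.2, 57.4, 37.9 and 36.6 CPM. With IMQ they were at 32.8, 38.7, 47.9, 46.6 and 70.1 CPM, a change of 0.10 with a 95% interval of -0.29 to 0.48. The intervals of the 4 pairwise comparisons together ran from -0.53 to 0.75 on the log2 scale.

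Tnfrsf1a, the receptor TNFR1, lay at the threshold. In Bmal1Mye-/- mice it was at 509, 478, 463, 501 and 462 CPM untreated. With IMQ it was at 234, 405, 408, 369 and 279 CPM, and the groups did not overlap, as held for 9.31% of all tested genes in that direction. The log2 fold change of -0.51 (SE 0.19) had an adjusted p of 0.0543 by edgeR, and DESeq2 placed it on the other side of the threshold (adjusted p = 0.0385). It also passed without IMQ-treated replicate 2 (-0.56, adjusted p = 0.0496) and without replicate 3 (-0.59, adjusted p = 0.0495). WT libraries were at 380, 375, 408, 513 and 502 CPM untreated and at 409, 344, 242, 541 and 502 CPM with IMQ. The WT values overlapped, and the change of -0.10 had an adjusted p of 0.815.

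Tnfrsf1b, the receptor TNFR2, was highest in untreated Bmal1Mye-/- neutrophils, at 188, 182, 134, 148 and 189 CPM. Untreated WT libraries were at 89.0, 99.7, 108, 133 and 161 CPM and overlapped with them. This genotype difference of 0.51 (95% interval of 0.09 to 0.93) had an adjusted p of 1.00 by edgeR. With IMQ the levels were 147, 126, 102, 114 and 73.1 CPM in Bmal1Mye-/- libraries. The fall in Bmal1Mye-/- mice was -0.58 (SE 0.20, adjusted p = 0.0430, edgeR), although replicate 1 with IMQ stayed above the lowest untreated library. The call was lost without untreated replicates 1 (adjusted p = 0.0872), 2 (0.0818), 4 (0.0631) and 5 (0.0855) and without IMQ-treated replicates 3 (0.0802), 4 (0.0532) and 5 (0.114). WT libraries with IMQ were at 92.3, 91.1, 86.9, 148 and 141 CPM, and the WT change was -0.08 (adjusted p = 0.867). With IMQ the genotypes were at nearly equal means, 112 ± 27.6 CPM in Bmal1Mye-/- and 112 ± 30.1 CPM in WT libraries (log2 fold change of 0.01, 95% interval of -0.41 to 0.42).

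The spread after IMQ was shared between genes. The 3 libraries with the highest Tnfsf13 were IMQ-treated Bmal1Mye-/- replicates 1 and 5 and IMQ-treated WT replicate 3. The same 3 of the 20 libraries had the lowest Tnfsf13b (29.9, 14.9 and 5.83 CPM), the lowest Tnfsf14 (26.0, 20.4 and 25.8 CPM) and the lowest Tnfrsf1a (234, 279 and 242 CPM). Tnf did not follow, at 32.8, 70.1 and 43.2 CPM in them. Tnfrsf1b followed in part. It was lowest of the 20 libraries in Bmal1Mye-/- replicate 5 (73.1 CPM) and next lowest in WT replicate 3 (86.9 CPM). In Bmal1Mye-/- replicate 1 it was at 147 CPM. These libraries were picked out after their values were seen, so this is a description of them. They also held the 3 lowest summed levels of the 9 neutrophil markers (69375, 103458 and 97967 CPM, against 117149 to 149716 CPM in the other 17) and the 3 largest shares of reads without a unique position (6.50%, 5.75% and 6.34%, against 4.37% to 5.12%). The summed level of the early granulocyte markers was 2337, 1061 and 1362 CPM in them, against 527 to 1930 CPM in the other 7 IMQ-treated libraries. Over the 20 libraries Tnfsf13 and that sum had a Pearson correlation of 0.69 on the log2 scale (0.69 within groups), a description of libraries that also share their group and scaling. The correlation of Tnfsf13 was -0.70 with the neutrophil marker sum (-0.65 within groups) and -0.29 to 0.39 with the other marker sums. It was -0.87 with Tnfrsf1a and -0.80 with Tnfsf14. The part of these measures in the result was not tested. Without IMQ-treated WT replicate 3 and Bmal1Mye-/- replicate 1, the IMQ changes in Bmal1Mye-/- mice were 1.01 for Tnfsf13, -1.12 for Tnfsf13b, -1.21 for Tnfsf14, -0.38 for Tnfrsf1a and -0.68 for Tnfrsf1b, and all 5 passed (adjusted p of 0.00593 to 0.0440, edgeR). In that fit 2463 of the 14030 tested genes were called higher and 1637 lower, against 2024 and 1268 with all libraries.

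**Figure D4:**
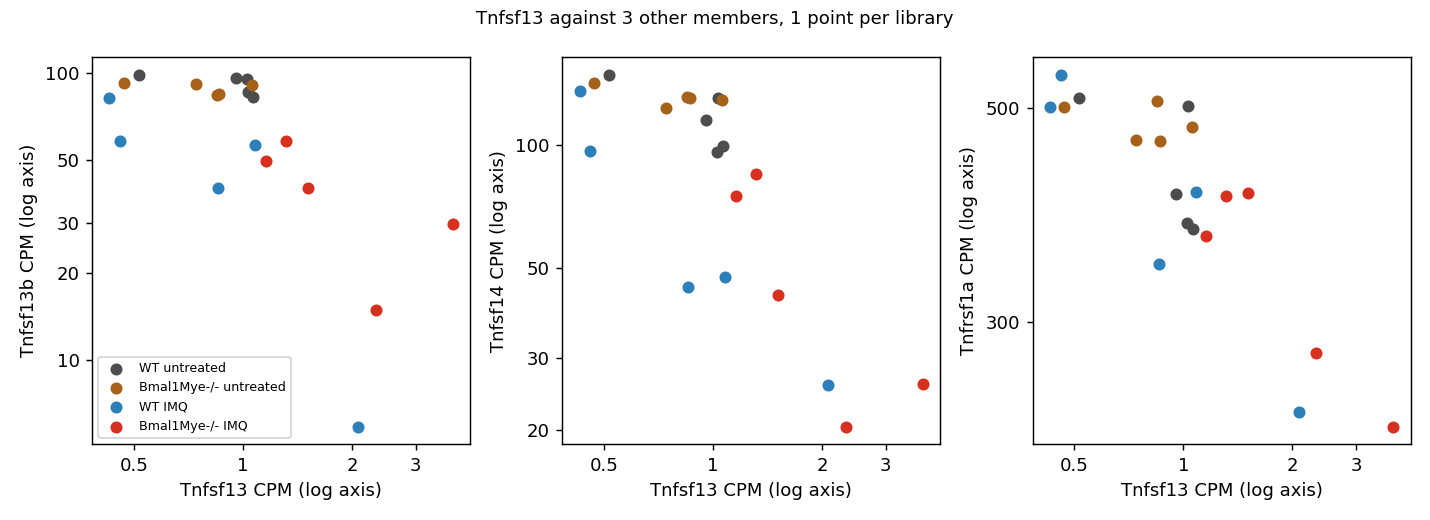
Tnfsf13 CPM against Tnfsf13b, Tnfsf14 and Tnfrsf1a CPM, both axes logarithmic, 1 point per library and colored by group. The 3 libraries above 2 CPM of Tnfsf13, 2 from IMQ-treated Bmal1Mye-/- and 1 from IMQ-treated WT mice, lie lowest on each vertical axis.

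Marker genes of other cell types moved in the same IMQ comparison, in which 23.5% of all tested genes were called. In Bmal1Mye-/- mice 5 of 8 monocyte markers rose and 0 fell with IMQ, with a summed level of 280 to 393 CPM untreated and 129 to 1737 CPM with IMQ. The median of the sum was 326 CPM untreated and 275 CPM with IMQ, and the highest values were those of replicates 1 and 2 (1737 and 622 CPM). Csf1r, the receptor that defines monocytes, was at 203 ± 12.3 CPM untreated and 99.5 ± 82.9 CPM with IMQ and did not pass (adjusted p = 0.167, edgeR). It was the largest part of each untreated sum, so the lower median of the sum reflects that gene. Of the 8 monocyte markers 7 had a positive change (median log2 fold change of 1.73, against 0.02 over all tested genes). The 9 neutrophil markers gave 1 lower call, and their sum was 117149 to 138530 CPM untreated and 69375 to 141813 CPM with IMQ. Of 6 tested early granulocyte markers 0 passed, with sums of 823 to 1514 CPM untreated and 818 to 2337 CPM with IMQ. B-lineage markers gave 3 lower calls of 8 tested (6.46 to 26.0 CPM untreated, 5.31 to 8.38 CPM with IMQ), and plasma cell markers 3 of 5 (410 to 1141 and 197 to 295 CPM). Of the T and NK cell markers 1 of 4 fell and of the eosinophil markers 1 of 5, while 0 of 6 macrophage and 0 of 5 erythroid markers passed. In WT mice 4 of 5 plasma cell and 1 of 5 eosinophil markers fell with IMQ, where 3.95% of all tested genes were called. No marker of the other lists passed in WT. The plasma cell sum there was 422 to 1566 CPM untreated and 153 to 423 CPM with IMQ. Between the genotypes with IMQ, 2 of 5 eosinophil markers, Epx and Prg2, were higher in Bmal1Mye-/- libraries, with sums of 36.4 to 199 CPM against 18.0 to 36.9 CPM in WT. There 0.292% of all tested genes were called. The part of these cells in the levels of the 6 genes was not tested.

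For the rest of the superfamily, 14 other ligand genes were listed and 6 were tested. Ltb, a partner chain of lymphotoxin, was the 1 other ligand in the CPM range of the members apart from Tnfsf13, at 161 ± 11.97 CPM in untreated WT libraries. Tnfsf10 was at 0.542 ± 0.265 CPM there, against 0.917 ± 0.228 CPM for Tnfsf13. These levels are not scaled by gene length. In Bmal1Mye-/- mice 1 of the 6 passed with IMQ, where 23.5% of all tested genes did. It was Eda, the ectodysplasin ligand, which fell by 1.64 on the log2 scale (adjusted p = 0.0484, edgeR) from 0.417 ± 0.237 to 0.139 ± 0.091 CPM. That call was lost with the replicate block (adjusted p = 0.0585) and held in 2 of 10 fits without 1 library. The median change of the 6 was -0.09, against 0.02 over all tested genes.

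Of 26 other receptor genes 21 were tested, and with IMQ 3 fell and 0 rose in Bmal1Mye-/- mice, a smaller share than the 23.5% called over all genes. Tnfrsf19 (TROY) fell by 2.02 on the log2 scale in Bmal1Mye-/- mice (adjusted p = 0.0232) and by 2.88 in WT mice (adjusted p = 0.0213), where it was the 1 receptor called. It was at 1.76 ± 0.747 CPM in untreated and 0.238 ± 0.2803 CPM in IMQ-treated WT libraries. Fas, the death receptor of FasL, fell by 0.87 in Bmal1Mye-/- mice (adjusted p = 0.0419), from 54.3 ± 6.06 to 29.8 ± 13.4 CPM. Relt fell by 0.57 (adjusted p = 0.0190), from 154 ± 8.97 to 104 ± 22.4 CPM. DESeq2 called 5 receptors there and 3 in WT. Over all tested genes it called 2406 higher and 1784 lower in Bmal1Mye-/- mice, and 801 higher and 679 lower in WT. The calls held in 8 of 10 fits without 1 library for Relt and Tnfrsf19 in Bmal1Mye-/- mice, in 6 of 10 for Tnfrsf19 in WT and in 2 of 10 for Fas.

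The receptors that the ligands bind were named for that role. Ltbr, the lymphotoxin-β receptor, was at 86.4 ± 8.91 CPM and Tnfrsf14 (HVEM) at 22.2 ± 1.17 CPM in untreated Bmal1Mye-/- libraries, and neither passed with IMQ (adjusted p = 0.230 and 0.205, edgeR). Tnfrsf13b (TACI) was at 2.07 ± 0.579 CPM untreated and 4.18 ± 1.77 CPM with IMQ in Bmal1Mye-/- libraries (log2 fold change of 1.01, adjusted p = 0.0679). Tnfrsf17 (BCMA) and Tnfrsf13c (BAFF-R), which mark plasma and B cells, were at 0.900 ± 0.543 and 0.727 ± 0.336 CPM in untreated Bmal1Mye-/- libraries and at 0.220 ± 0.128 and 0.299 ± 0.196 CPM with IMQ, and neither passed (adjusted p = 0.0626 and 0.227, edgeR).

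Downstream of the receptors, all 30 signalling genes were tested. With IMQ in Bmal1Mye-/- mice 5 rose and 4 fell, 9 of 30 where 23.5% of all tested genes were called, so the count stood near that of genes in general (median change of -0.04). Those that rose were Ripk3, Mlkl, Casp8, Fadd, the adaptor that recruits caspase-8, and Map3k7, the kinase TAK1. Ripk1, Tradd and Cflar, which also act in TNFR1 signalling and cell death, were not called. Ripk1 was at 87.8 ± 2.07 CPM untreated and 85.4 ± 7.87 CPM with IMQ. Ripk3, the necroptosis kinase, rose by 1.53 (SE 0.33, adjusted p = 0.00693, edgeR) from 6.84 ± 1.08 to 19.7 ± 8.96 CPM. Mlkl, its pore-forming substrate, rose by 1.46 (SE 0.31, adjusted p = 0.00669) from 5.60 ± 0.783 to 15.3 ± 5.64 CPM. Casp8, the initiator caspase, rose by 0.73 (SE 0.17, adjusted p = 0.00917). These 3 calls held in all 10 fits without 1 library, with the replicate block and with DESeq2.

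The genes that fell were Birc2, Spata2, Tnip1 and Map3k14. Birc2, the ubiquitin ligase cIAP1, fell by 0.42 on the log2 scale (adjusted p = 0.0141, edgeR), from 41.6 ± 1.45 to 31.1 ± 3.74 CPM. Spata2, an adaptor of the deubiquitinase CYLD, fell by 0.38 (adjusted p = 0.00921). Both calls held in all 10 fits without 1 library. In WT mice 0 of the 30 passed (4 at an unadjusted p under 0.05, 0 with DESeq2), with values of 0.89 for Ripk3 (adjusted p = 0.107, edgeR) and 0.62 for Mlkl (adjusted p = 0.236). The interaction was 0.63 (SE 0.45) for Ripk3 and 0.84 (SE 0.43) for Mlkl and did not pass for either. For Spata2 the interaction had the smallest unadjusted p of the genes named here (0.00208), with an adjusted p of 0.640.

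**Figure D5:**
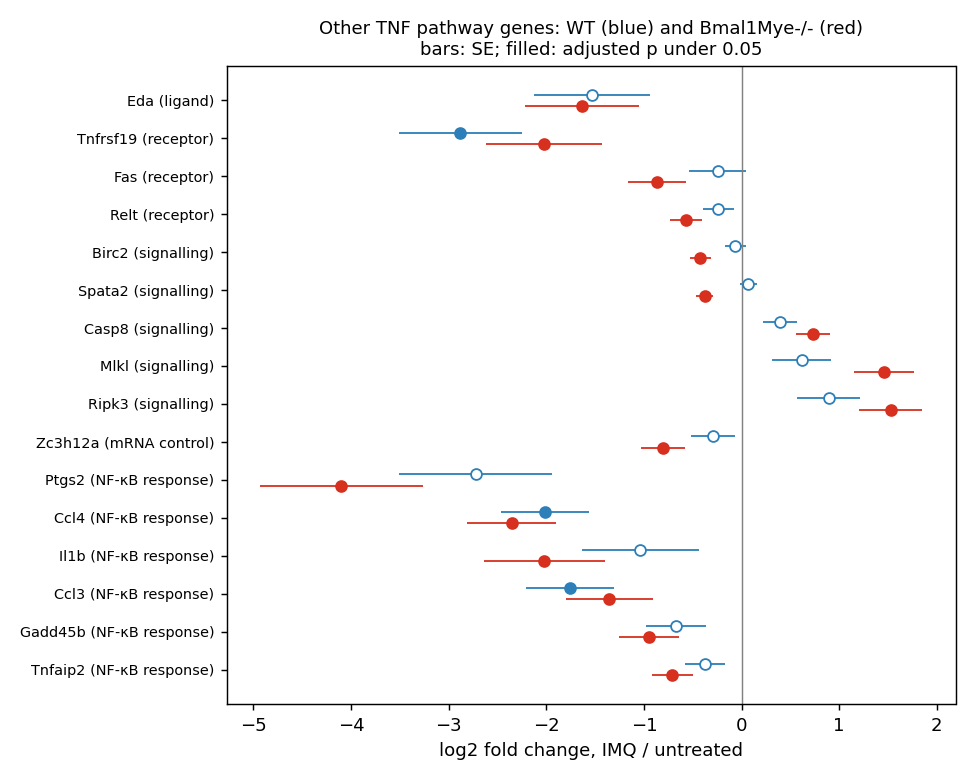
Log2 fold change of IMQ-treated over untreated mice (bars, SE) for the named genes of the other lists that passed in Bmal1Mye-/- mice, blue for WT and red for Bmal1Mye-/-, filled where the edgeR adjusted p was under 0.05. Ripk3, Mlkl and Casp8 lie right of 0, and the NF-κB response genes shown lie left of 0, in both genotypes.

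Of 12 genes for ligand release and mRNA control, all tested, 1 passed with IMQ in Bmal1Mye-/- mice, where 23.5% of all tested genes did. Zc3h12a, which encodes the ribonuclease Regnase-1, fell by 0.81 on the log2 scale (adjusted p = 0.0188, edgeR) from 44.1 ± 10.5 to 25.3 ± 7.48 CPM. Adam17, the protease that releases TNF, was at 66.8 ± 2.49 CPM untreated and 67.0 ± 8.75 CPM with IMQ (adjusted p = 0.975). DESeq2 and the replicate block each called 2 of the 12.

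Of 18 NF-κB response genes 17 were tested. With IMQ 7 fell and 0 rose in Bmal1Mye-/- mice, where 23.5% of all tested genes were called in either direction. The median change was -0.71, against 0.02 over all tested genes. Ptgs2, the inducible cyclooxygenase, fell by 4.10 (SE 0.83, adjusted p = 0.00624, edgeR), from 166 ± 108 to 9.73 ± 7.55 CPM. Ccl4 fell by 2.35 (adjusted p = 0.00539) from 5.01 ± 2.47 to 0.979 ± 0.704 CPM, and Ccl3, the other macrophage inflammatory protein, by 1.36 (adjusted p = 0.0360) from 25.6 ± 12.4 to 9.97 ± 6.43 CPM. Il1b fell by 2.02 (SE 0.62, adjusted p = 0.0275), from 419 ± 88.2 to 103 ± 77.3 CPM. Gadd45b fell by 0.94 (adjusted p = 0.0350) and Tnfaip2 by 0.71 (adjusted p = 0.0227), and Nfkbie, an inhibitor of NF-κB, was the 7th (-0.87, adjusted p = 0.0436). Ptgs2 and Ccl4 passed in all 10 fits without 1 library, Il1b and Tnfaip2 in 7, Ccl3 in 4 and Gadd45b in 3.

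In WT mice 2 of the 17 response genes passed, where 3.95% of all tested genes did. They were Ccl3 (-1.76, adjusted p = 0.0366, edgeR) and Ccl4 (-2.01, adjusted p = 0.0225), and with the replicate block 0 passed. Leaving out 1 library kept the WT call of Ccl3 in 1 of 10 fits and that of Ccl4 in 5 of 10. Ptgs2 had a log2 fold change of -2.72 in WT, with an adjusted p of 0.0551. Nfkbia, the gene of the inhibitor IκBα, was at 205 ± 44.2 CPM untreated and 294 ± 96.5 CPM with IMQ in Bmal1Mye-/- libraries and did not pass (adjusted p = 0.135). Between the genotypes and in the interaction 0 genes of the 5 lists passed by edgeR. With IMQ, 11 of the 30 signalling genes and 6 of the 21 receptors lay under an unadjusted p of 0.05 between the genotypes, where 19.9% of all genes did, and DESeq2 called 1 gene of each list.

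The genes whose levels followed each member most closely over the 20 libraries were ranked among 10859 genes by the Pearson correlation of log2 CPM, which also follows the spread between groups that all genes share. For Tnfsf14 they were Ccdc126 (r = 0.988), Gm10684 (0.986) and Sephs2 (0.984), and for Tnfrsf1a Rassf3 (0.983), Itprip (0.980) and Msl2 (0.980). For Tnfsf13b they were Lman2l (0.974), Clec7a, which encodes the β-glucan receptor dectin-1 (0.963), and Parp8 (0.961). Dis3l (0.963), Naa50 (0.956) and Ranbp1 (0.953) were closest to Tnfsf13. Tnfrsf1b and Tnf had looser neighbours, Mef2d (0.902), Ndufaf7 (0.882) and Txndc16 (0.857) for the former and Brpf1 (0.827), Nkiras2 (0.808) and Tmem9b (0.806) for the latter. None of these lists held another member.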

How the data were processed

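Bone marrow neutrophils of 20 mice were enriched by negative magnetic selection (CD11b+Ly6G+ purity above 95%), and poly(A) RNA was sequenced on either of 2 Illumina instruments, with the assignment of libraries not given. The deposited values are whole-number read counts per gene, made by the authors. The submitters' processing notes name bcl2fastq, STAR 2.7.8a, HTSeq 2.0.1 and mm10, while the study's methods name TopHat, so the aligner is uncertain. The annotation and strand setting are not given in the sources used here. The total of reads on genes was 30782166 to 92613500 per library, and rows that name no gene were left out of library sizes and tests.

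Counts were filtered with filterByExpr (14030 of 24421 genes), scaled by TMM and tested in 1 model of the 4 groups with edgeR 4.0.16 (quasi-likelihood, Benjamini-Hochberg over all tested genes, threshold 0.05, R 4.3.3), 5 libraries per group. The labels give 1 library per mouse. CPM are per 1000000 TMM-scaled reads. DESeq2 1.42.0, limma 3.58.1 on log2(CPM + 0.1), RLE factors, library totals, other filters, the 2 compared groups alone, a replicate block and each library left out in turn were alternatives. Genes outside the 6 were named by rule: from each list at most 5 called genes per comparison in order of p, and for each of the 6 the 3 genes of at least 1 mean CPM most correlated with it. The binding receptors, Adam17, Ltb and Tnfsf12 were named for their role, and others (Fadd, Map3k7, Ripk1, Tradd, Cflar, Tnip1, Map3k14, Nfkbie, Nfkbia, Epx, Prg2) after their values were seen. The members and lists were chosen with earlier results of these data known. Same-numbered libraries correlated positively in the IMQ comparison of Bmal1Mye-/- mice (0.128 to 0.426, 5 of 5 above 0.1), so blocked values stand beside those results. In WT they did so to nearly the same degree (0.0728 to 0.384, 4 of 5 above 0.1). On simulated counts of the genotype comparison with IMQ, 59 of 100 2-fold and 92 of 100 4-fold changes were recovered.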

Additional observations from a re-analysis of the deposited data

Results flagged for a closer look

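Of 24 sets of 5 libraries (6 genes in 4 groups), 1 held a library far from the others by Dixon's criterion at the 95% level, a rate that chance alone gives in about 1 of 20 sets. Tnfsf13 in untreated WT replicate 4 was at 0.516 CPM, from 34 reads, against 0.954 CPM in the nearest of the other 4.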

How the results depend on the processing

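In the IMQ comparison of Bmal1Mye-/- mice the number of the 6 genes called was 2 with no filter and 2 with the replicate block, and 1 to 5 without 1 library. Without the 2 libraries of highest scaling factor (chosen after seeing the data) Tnfsf13 was called between the genotypes with IMQ (1 of 6, 1.20, adjusted p = 0.0406), a difference that ran from 0.70 to 1.52 without 1 library. Without those 2 libraries 802 of all tested genes were called higher and 481 lower there, against 26 and 15 in the main fit. Leaving out 1 library gave 0 to 1 of the 6 for IMQ in WT mice, 0 to 1 between the genotypes with IMQ, and 0 for the untreated genotypes and the interaction. Single calls in Bmal1Mye-/- mice were lost for Tnfsf13b with no filter (adjusted p = 0.0556) and limma (0.0666), and for Tnfrsf1b with library totals (0.139), no filter (0.0605) and limma (0.122). Tnfrsf1a passed with library totals (0.0322), at least 10 counts in every library (0.0434) and limma (0.0454). The cause of these changes was not tested.

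Directions turned for values near 0. Between the genotypes with IMQ, Tnfrsf1b was -0.014 with DESeq2, -0.014 with RLE factors and -0.16 without the 2 libraries, and -0.10 to 0.15 without 1 library. Tnf there was 0.051 with library totals and 0.024 with limma, and Tnfsf13b 0.13 with limma, which also gave an interaction of 0.17 for Tnfsf13b. For IMQ in WT, Tnfsf13 was -0.13 with limma and -0.39 without the 2 libraries (-0.39 to 0.29 without 1), Tnfrsf1a was 0.033 without the 2 (-0.22 to 0.042 without 1), and Tnfrsf1b was -0.20 to 0.060 without 1. For IMQ in Bmal1Mye-/- mice, Tnf was -0.074 to 0.21 without 1 library.

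Among the other lists, DESeq2 called 3 receptors and 1 release or mRNA control gene in WT, 5 and 2 in Bmal1Mye-/- mice, and 1 receptor and 1 signalling gene between the genotypes with IMQ. The replicate block gave 0 NF-κB response genes in WT, and 0 ligands and 2 release or mRNA control genes in Bmal1Mye-/- mice. Without the 2 libraries, 3 receptors, 1 signalling gene and 4 response genes were called in WT, 0 ligands, 7 receptors and 5 release or mRNA control genes in Bmal1Mye-/- mice, and 1 receptor, 3 signalling genes, 1 release or mRNA control gene and 1 response gene between the genotypes.

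Counts over all genes moved too. For IMQ in WT there were 554 calls, against 1480 with DESeq2, 326 with no filter, 190 with the replicate block, 186 with the 2 groups alone, 920 without the 2 libraries and 56 to 2045 without 1 library, so WT calls depended on single libraries. They split into 329 higher and 225 lower, against 196 and 200 with library totals and 130 and 405 with limma. Between the genotypes there were 29 untreated (59 with the 2 groups alone, 24 to 27 without 1 library) and 41 with IMQ (311 with DESeq2, 16 with the 2 groups alone, 1283 without the 2 libraries, 21 to 3093 without 1 library). IMQ in Bmal1Mye-/- mice gave 3292 (1612 to 4042 without 1 library), and the interaction 0 (0 to 1). Library totals moved the median of all genes from 0.02 to 0.16 for IMQ in Bmal1Mye-/- mice and from 0.03 to 0.23 between the genotypes with IMQ.

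For IMQ in Bmal1Mye-/- mice, 5 of 5 correlations between libraries of the same replicate number were above 0.1. Unlike numbers were not compared. Same-numbered libraries correlated at 0.0728 to 0.384 for IMQ in WT (4 of 5 above 0.1), -0.441 to 0.206 between the untreated genotypes and -0.497 to 0.343 between the genotypes with IMQ, where the block left 0 of the 6 called. Tnfsf13 rested on 22 to 293 reads per library, the lowest counts of the 6 genes.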
